A study of Mus musculus with 4 samples.

Results

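The response of a diabetes locus to glucose was followed in mouse islets through *C2cd4a*, *C2cd4b*, *Vps13c* and *C2cd4c*. The first 3 are neighbours on chromosome 9, and *C2cd4c* is a paralogue of *C2cd4a* and *C2cd4b* on chromosome 10. They were picked by symbol, as 4 of the 24012 genes of the deposited table, and they hold 5 of its 33923 entries. *C2cd4c* has 2 entries, of which the one with the higher mean over the libraries was used. The set was put together with its response to glucose already known, so the glucose changes of *C2cd4a* and *C2cd4b* are given as descriptions, with no test.

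*C2cd4a*, *C2cd4b*, *C2cd4c* and *C2cd4d* encode small proteins that carry a C2 domain, a fold that in other proteins often binds calcium and membrane lipids. The human interval that holds *C2CD4A*, *C2CD4B* and *VPS13C* is associated with type 2 diabetes and with fasting glucose, and *C2CD4A* and *C2CD4B* were first described as nuclear factors of endothelial cells that inflammatory cytokines induce. VPS13C is a long bridge-like lipid transfer protein at contacts of the endoplasmic reticulum with late endosomes and lipid droplets.

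Transcripts of whole islets were measured by RNA-seq. Islets of wild type male C57bl6 mice, adults of 3 months, went into a pool that stood overnight in 11 mM glucose and was then starved at 2.8 mM for 2 h. Stimulation followed at 16.8 mM, with 2.8 mM as the control, and each concentration has 2 libraries. The series design gives 12 h for this last step in both groups, whereas the labels of the 2.8 mM libraries give 2 h, so that time and concentration cannot be told apart if those labels hold. Since all animals entered a single pool, the spread between 2 libraries of a group may be technical, and p-values measure that spread alone. The cell type is given as mixed, and each value is an average over beta, alpha, delta and other islet cells, in which fewer cells of a type and less RNA per cell cannot be told apart.

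Values are RPKM, reads scaled to the length of the gene and the depth of the library. Library depth, recovered from the steps of the values, lay between 50800000 and 60680000 reads, at which 1 read in a gene of 1 kb is worth 0.0165 to 0.0197 RPKM. The steps followed the whole gene span, introns included, so an RPKM here is a level per length of span, and read numbers below were computed back from it. Beta cell markers were abundant, as the islet label would have it, with summed levels of 20586 to 22936 RPKM at 2.8 mM and 41148 to 43896 RPKM at 16.8 mM, to which the insulin genes gave most.

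*C2cd4a* (NM_1163143) lies on the minus strand of chromosome 9 at chr9:67678339-67680137 in NCBI build 37 (mm9), a gene of 1799 bases with 2 exons. *C2cd4b* (NM_1081314) lies on the plus strand at chr9:67607244-67608736, also with 2 exons, over 1493 bases. The pair point towards each other, with 72.9 kb between their start sites. *Vps13c* (NM_177184) begins 8.07 kb from the start of *C2cd4a* and runs away from it on the plus strand, at chr9:67688203-67843441. It spans 155239 bases, of which only 7.48% are exons, and its longest annotated form has 85 exons. *C2cd4c* (NM_1168624) lies on the minus strand at chr10:79069602-79076763 and is 94.2% exon.

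The promoters of *C2cd4a* and *C2cd4b*, the pair that was higher at 16.8 mM, are shown, since they hold different motifs. Each runs from 250 bases before to 50 after the start site, in RefSeq's mouse build GRCm38.p6, on the strand of the gene, with the motifs found in capitals. Each has 1 exact match in build 37, at chr9:67680088-67680387 for *C2cd4a* and at chr9:67606994-67607293 for *C2cd4b*.
C2cd4a promoter: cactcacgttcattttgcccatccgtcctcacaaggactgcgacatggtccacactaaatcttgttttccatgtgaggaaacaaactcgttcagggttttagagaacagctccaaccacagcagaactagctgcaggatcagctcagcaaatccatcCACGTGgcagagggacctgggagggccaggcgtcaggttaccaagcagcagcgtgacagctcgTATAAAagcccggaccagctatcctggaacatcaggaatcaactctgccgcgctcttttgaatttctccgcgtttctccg
C2cd4b promoter: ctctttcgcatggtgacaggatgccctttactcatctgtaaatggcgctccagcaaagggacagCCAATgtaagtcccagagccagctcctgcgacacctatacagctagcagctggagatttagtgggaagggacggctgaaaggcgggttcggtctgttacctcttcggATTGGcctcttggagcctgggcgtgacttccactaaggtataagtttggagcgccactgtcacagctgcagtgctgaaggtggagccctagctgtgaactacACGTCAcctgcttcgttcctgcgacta
Both strands were searched for the E-box CACGTG, the cyclic AMP response element core TGACGT, the TATA box TATAAA, the CCAAT box CCAAT, the forkhead site GTAAACA and the AP-1 site TGACTCA, a set chosen with the sequences in view. The *C2cd4a* promoter holds CACGTG, beginning 93 bases before the start, and TATAAA, beginning 30 bases before it. The first is in 7.17% and the second in 13.6% of the 32544 different RefSeq promoters of the same length. The *C2cd4b* promoter holds neither. It holds CCAAT on the strand of the gene 186 bases before the start and on the other strand, read as ATTGG, 79 bases before it, a motif of 37.4% of all promoters. TGACGT also stands there on the other strand, read as ACGTCA, 23 bases after the start, and is in 7.55% of all promoters. The *C2cd4c* promoters hold TATAAA on the other strand only. No GTAAACA or TGACTCA was in the windows of these 3 genes.

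The coding sequences of *C2cd4a* and *C2cd4b*, of 1005 and 1023 bases, were 88.4% identical over 950 aligned bases, against 66.9% for *C2cd4a* with *C2cd4c* and 71.8% with *C2cd4d*. Their longest shared run is 104 bases, longer than the 50-base reads of the libraries. A stretch of 150 bases around this run, positions 584 to 733 of both coding sequences in the GENCODE transcripts of build 37, shows where reads cannot tell the pair apart, with the 2 bases that differ in capitals.
C2cd4a coding: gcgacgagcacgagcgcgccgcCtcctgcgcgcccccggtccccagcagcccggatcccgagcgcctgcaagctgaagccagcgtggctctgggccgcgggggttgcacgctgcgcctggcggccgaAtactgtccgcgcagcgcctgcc
C2cd4b coding: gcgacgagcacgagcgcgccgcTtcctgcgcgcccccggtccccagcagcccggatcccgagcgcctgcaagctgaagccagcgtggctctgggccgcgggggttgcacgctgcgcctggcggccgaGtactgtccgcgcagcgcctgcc
Of the 50-base words of the *C2cd4a* transcript, 107 of 1303 (8.21%) also occur in *C2cd4b*, and no word of *C2cd4c* or *Vps13c* occurs in a coding transcript of another gene. *C2cd4b* overlaps *M5C1000I18Rik*, annotated on the opposite strand, with which it shares 39.9% of its 1277 words. How reads with several matches and strand were handled is not given in the sources used here, so the values of the pair are uncertain to that extent.

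*C2cd4a* was at 0.523 and 0.503 RPKM in the 2.8 mM libraries and at 7.20 and 7.11 RPKM in the 16.8 mM libraries. Both high glucose libraries were far above both low glucose libraries, and replicates within a group lay close together. The means were 0.513 ± 0.014 and 7.15 ± 0.068 RPKM (SD, n = 2 each), a 13.9-fold ratio that ranged from 13.6 to 14.3 over the pairs of libraries. Behind these levels were 55 and 47 reads in the low glucose libraries and 786 and 649 in the high glucose libraries. The fitted log2 fold change of RPKM + 0.5 was 2.92, with a standard error of 0.083. The added 0.5 RPKM understates the change of a gene this low, for which 2.43 with 1 RPKM added and 3.56 with 0.1 RPKM added were obtained.

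*C2cd4b* was the most abundant of the 4 genes per length of span. It was at 4.47 and 4.31 RPKM at 2.8 mM and at 40.3 and 39.3 RPKM at 16.8 mM. The groups were again well apart, and 22.2% of tested transcripts had both high glucose values above both low glucose values. Means of 4.39 ± 0.114 and 39.8 ± 0.678 RPKM (SD, n = 2 each) gave a 9.07-fold ratio, from 8.80 to 9.35 over the pairs of libraries, with 390 and 334 reads against 3650 and 2983 reads. Its fitted log2 fold change was 3.04 with a standard error of 0.11.

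Among all genes of the table, ordered by mean RPKM, *C2cd4b* went from rank 2299 at 2.8 mM to rank 251 at 16.8 mM, and *C2cd4a* from rank 9364 to rank 1374. Only transcripts averaging 1 RPKM or more were tested. Of these 7867, 24 (0.305%) were at least 8-fold higher at 16.8 mM, and the pair are 2 of them. Their change is the reason they were picked, so nothing is read from this. Only 10 tested transcripts had a larger fitted log2 fold change than *C2cd4b* and 12 than *C2cd4a*.

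**Figure D1:**
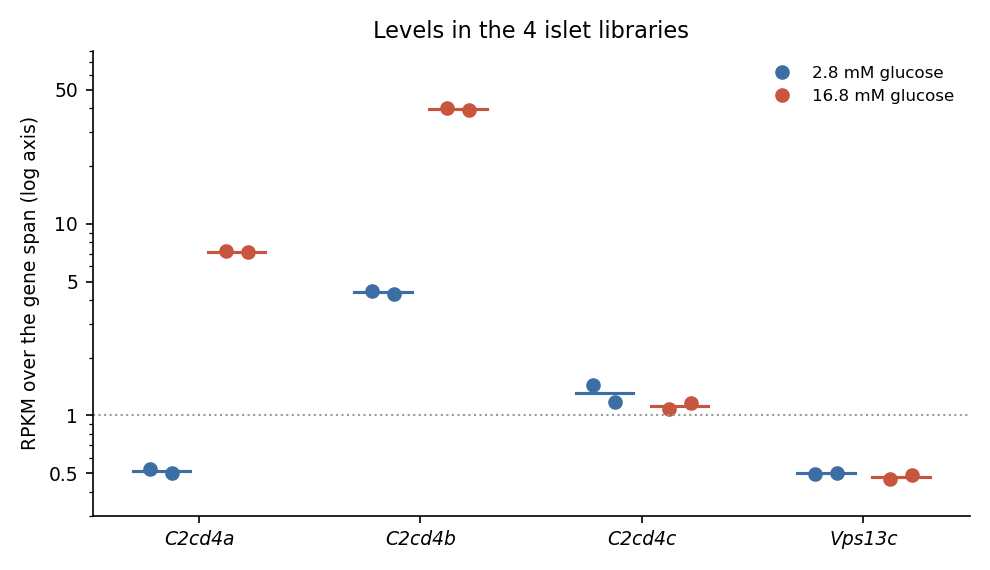
RPKM over the gene span (log axis) of the 4 genes in the 2 libraries at 2.8 mM glucose (blue) and the 2 at 16.8 mM (red). Points are libraries, short lines are group means, and the dotted line marks the mean of 1 RPKM needed for the test. *C2cd4a* and *C2cd4b* are 13.9-fold and 9.07-fold higher at 16.8 mM, while *C2cd4c* and *Vps13c* stay near 1.2 and 0.49 RPKM.

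*C2cd4a* and *C2cd4b* did not keep their proportion. *C2cd4b* was 8.54 and 8.57 times as high as *C2cd4a* in the 2.8 mM libraries, and 5.59 and 5.54 times as high in the 16.8 mM libraries. The 2 groups of ratios did not overlap, on a scale that adds nothing to the RPKM. If reads were spread evenly over *C2cd4b* and every read from a word shared with it had been given to *C2cd4a*, *C2cd4a* would keep 19 and 16 reads in the low glucose libraries and 452 and 376 in the high glucose libraries. Its ratio would then be 23.0-fold.

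*C2cd4c* was at 1.44 and 1.18 RPKM at 2.8 mM and at 1.08 and 1.16 RPKM at 16.8 mM. The high glucose libraries lay just under the lower of the low glucose libraries, as was so for 48.3% of tested transcripts. The means were 1.31 ± 0.186 and 1.12 ± 0.052 RPKM (SD, n = 2 each), a 0.856-fold ratio behind 603 and 437 reads against 470 and 420 reads. Across the table, 2628 of 7867 transcripts (33.4%) had an adjusted p under 0.05, 838 higher (10.7%) and 1790 lower (22.8%), and *C2cd4c* was not among them (log2 fold change -0.16, standard error 0.095, 95% confidence interval -0.38 to 0.07, limma adjusted p = 0.239). The interval leaves room for a small fall but not for a change of the size seen in *C2cd4a* and *C2cd4b*. Without the first 2.8 mM library, the value was -0.050. *C2cd4d*, the remaining paralogue, was at 0.153 and 0.163 RPKM at 2.8 mM and at 0.264 and 0.195 RPKM at 16.8 mM, under the minimum, and was not tested.

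**Figure D2:**
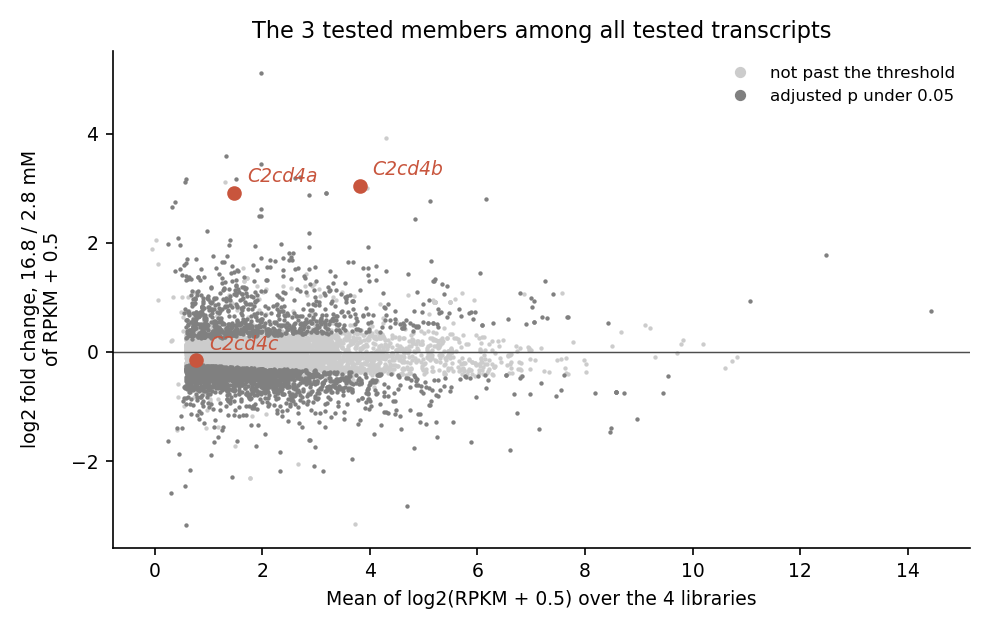
Fitted log2 fold change of RPKM + 0.5 (16.8 mM over 2.8 mM, vertical axis) against the mean of log2(RPKM + 0.5) over the 4 libraries for the 7867 tested transcripts. Dark grey points have an adjusted p under 0.05, and red points are *C2cd4a* at 2.92, *C2cd4b* at 3.04 and *C2cd4c* at -0.16.

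*Vps13c* was at 0.497 and 0.504 RPKM at 2.8 mM and at 0.464 and 0.491 RPKM at 16.8 mM. All 4 libraries fell in a narrow band, with both 16.8 mM values under both 2.8 mM values, as was so for 48.3% of tested transcripts. Means of 0.501 ± 0.0045 and 0.477 ± 0.019 RPKM (SD, n = 2 each) gave a 0.954-fold ratio. Its long span puts 3870 to 4516 reads behind each value, but its mean is under 1 RPKM and it was not tested with the other genes. In the fit with no minimum, in which 9.13% of 28047 transcripts passed, its log2 fold change was -0.03 (standard error 0.033, 95% confidence interval -0.14 to 0.07, limma adjusted p = 0.567), and it was 0.050 once every library had been centred on the median of its values. A change in *Vps13c* like that of its neighbour *C2cd4a*, 8.07 kb away, lies outside this interval. The added 0.5 RPKM understates changes at this level, and with 0.1 RPKM added the value was -0.057.

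At 2.8 mM, the order by level per length of span was *C2cd4b*, *C2cd4c*, *C2cd4a* and *Vps13c*, and the values of the last pair overlapped. At 16.8 mM it was *C2cd4b*, *C2cd4a*, *C2cd4c* and *Vps13c*, with no overlap between neighbours in that order. Introns weigh on this order, since most of the *Vps13c* span is intron. Divided by exon length in place of span, with every read taken as exonic, which is an upper limit, *Vps13c* would be at 6.20 to 6.73 on this exon scale in all libraries, *C2cd4a* at 0.669 and 0.696 at 2.8 mM and 9.45 and 9.58 at 16.8 mM, and *C2cd4b* at 4.85 and 5.03 and at 44.3 and 45.4. On that scale *Vps13c* would stand above *C2cd4b* at 2.8 mM.

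Within 1 Mb of the interval from *C2cd4b* to *Vps13c*, 24 genes are annotated in build 37, and 9 besides the 3 described have an entry in the table. Of these 9, 7 were under the minimum and 2 were tested. Neither of the tested genes passed, although *Rps27l* passed in 7 and *Tpm1* in 3 of 14 alternative settings. *Rps27l*, a ribosomal protein-like gene, was at 12.2 and 10.7 RPKM at 2.8 mM and 8.87 and 8.92 RPKM at 16.8 mM (log2 fold change -0.34, limma adjusted p = 0.061). *Tpm1*, which encodes a tropomyosin, was at 2.51 and 2.36 against 3.02 and 2.71 RPKM (log2 fold change 0.20, limma adjusted p = 0.143). In the fit with no minimum, in which 6.17% of transcripts were lower, 2 of the 7 others were lower as well. *Car12*, *Aph1b*, *Aph1c*, *Rab8b* and *Lactb* did not pass there. Nearest to the threshold among these were *Aph1b* (0.627-fold, limma adjusted p = 0.052) and *Aph1c* (0.492-fold, limma adjusted p = 0.053). *Tln2*, the nearest of the 7, was at 0.0363 and 0.0350 RPKM at 2.8 mM and 0.0249 and 0.0240 RPKM at 16.8 mM (log2 fold change -0.030, limma adjusted p = 0.039), a 0.686-fold ratio. Its log2 fold change was 0.054 after median centring and -0.54 by voom on reconstructed reads. The added 0.5 RPKM understates the change of a gene this low. *Rora*, a nuclear receptor gene on the far side of *Vps13c*, was at 0.725 and 0.687 RPKM at 2.8 mM and 0.384 and 0.356 RPKM at 16.8 mM (log2 fold change -0.47, limma adjusted p = 0.038). With 1 library left out, the log2 fold change was -0.49 to -0.45 for *Rora* and -0.032 to -0.029 for *Tln2*.

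A single lncRNA of the deposited set lies in the window, 562 kb past the end of *Vps13c*, with position 68405610 of chromosome 9 in its name. It was at 2.07 and 2.23 RPKM at 2.8 mM and at 4.38 and 4.73 RPKM at 16.8 mM. Both high glucose values were above both low glucose values, and the rise was 2.12-fold (log2 fold change 0.93, standard error 0.094, limma adjusted p = 8.7e-04). Of the table genes in the window, the one that begins nearest to the lncRNA is *Rora*, at chr9:68501593, whose values were lower at 16.8 mM.

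**Figure D3:**
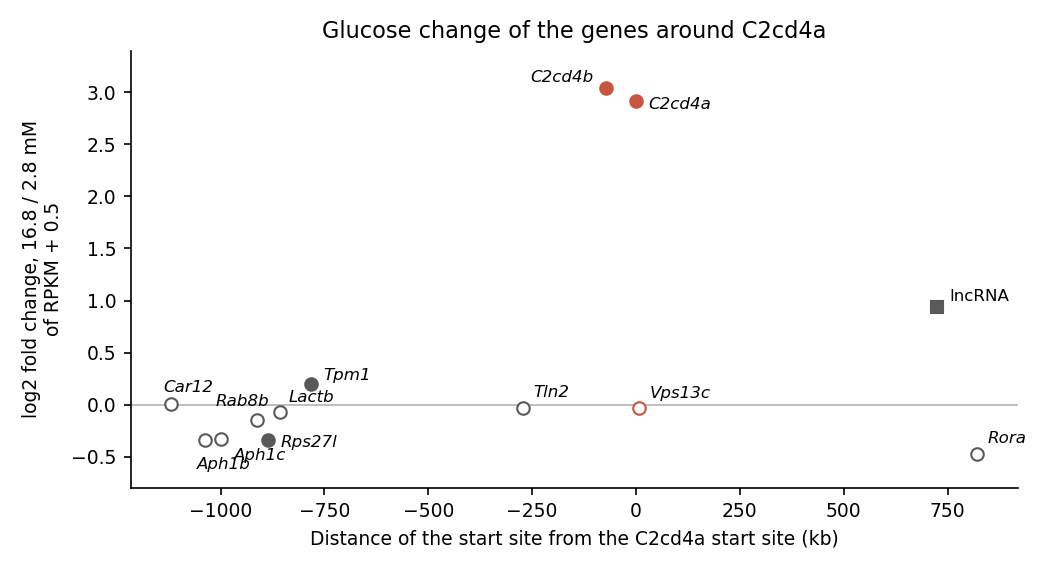
Log2 fold change of RPKM + 0.5 (16.8 mM over 2.8 mM) of the 12 genes of the table in the window and of the lncRNA, against the distance of their start site, or of the position in the name of the lncRNA, from the start site of *C2cd4a* in kb. Filled symbols were tested, open symbols were under the minimum, and red marks the 3 locus genes, of which *C2cd4a* and *C2cd4b* are at 2.92 and 3.04 and *Vps13c* is at -0.03.

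Genes whose profile over the 4 libraries was most like that of the pair were found by the Euclidean distance between log2(RPKM + 0.5) values, each centred on its gene's mean, among the 6808 genes that averaged 1 RPKM or more. With 2 libraries a group, this likeness reflects little more than the size of the glucose change, and it is a description. *C2cd4b* was second nearest to *C2cd4a* (distance 0.127), after *Fam46a* (0.104), and *C2cd4a* was nearest to *C2cd4b*. *G6pc2*, which encodes the islet glucose-6-phosphatase subunit and is itself a locus for fasting glucose, came next for *C2cd4a* (distance 0.193), at 27.5 and 25.9 RPKM at 2.8 mM and 177 and 202 RPKM at 16.8 mM. *Ttyh1* and *Mir132* were near to both members of the pair, and *Pdyn*, the gene of prodynorphin, was also near to *C2cd4b*, at 1.88 and 1.41 against 19.5 and 19.0 RPKM. *Mir132* was listed at 0 RPKM in both 2.8 mM libraries. *C2cd4c* was closest to *Gm561*, *Cyp51*, *Fam174a*, *Gm10767* and *Gm8096*, and *Vps13c* to *BC021767*, *Slc7a14*, *Clstn1*, *Tecr* and *C1galt1*.

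**Figure D4:**
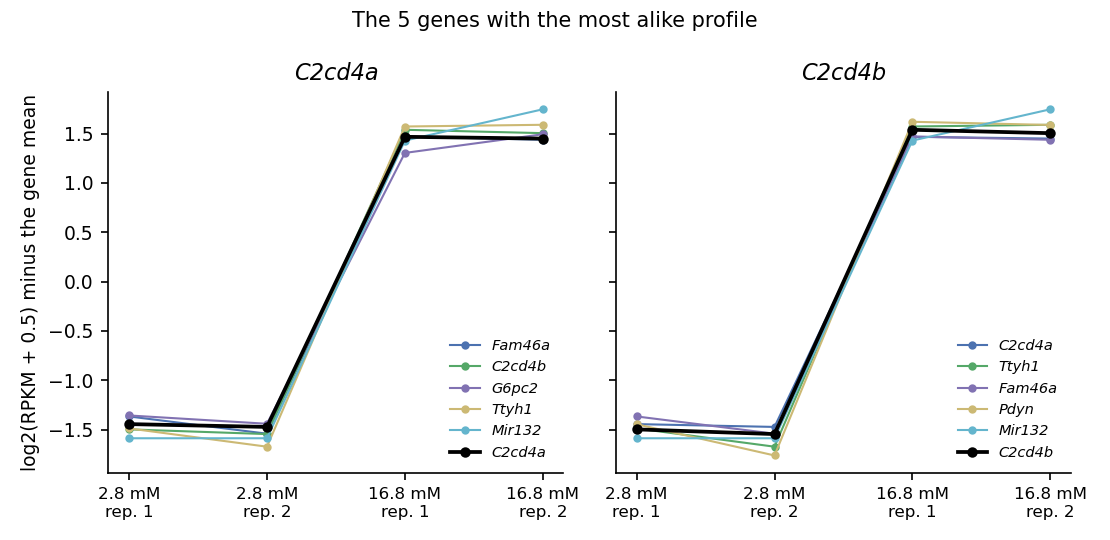
Profiles of *C2cd4a* (left, black) and *C2cd4b* (right, black) with the 5 nearest genes of each in colour, as log2(RPKM + 0.5) minus the mean of the gene, over the 2.8 mM and 16.8 mM libraries. The lines nearly coincide, with distances from 0.104 for *Fam46a* to 0.351 for *Mir132* at *C2cd4a*.

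Other genes at loci of type 2 diabetes or fasting glucose were called about as often as transcripts at large, of which 33.4% were. Of 29 such genes in the table, 10 were tested, 2 rose, 2 fell and 6 did not pass, with a median log2 fold change of -0.25 against -0.11 over all tested transcripts. Those that rose were *G6pc2* (log2 fold change 2.80, limma adjusted p = 6.1e-05) and *Gipr*, the receptor of the incretin GIP (0.88, limma adjusted p = 0.0018). *Wfs1*, which encodes a protein of the endoplasmic reticulum (-0.38, limma adjusted p = 0.023), and *Kcnj11*, the pore subunit of the ATP-sensitive potassium channel (-0.48, limma adjusted p = 0.023), fell. Their calls did not hold in every fit without 1 library, where the group left with 1 is taken to vary like the other. *Kcnj11* was at -0.51 and -0.46 without the first and the second 16.8 mM library and did not pass, and *Wfs1* was at -0.40 and -0.36 without these and at -0.34 without the first 2.8 mM library and did not pass. In the fit with no minimum, *Kcnj11* did not pass (limma adjusted p = 0.051). *Abcc8*, the partner subunit of *Kcnj11* (-0.10), and *Slc30a8*, the zinc transporter of insulin granules (-0.25), did not pass. The other 19 were under the minimum. In the fit with no minimum, 2 of these, *Pparg* (-0.45) and *Jazf1* (-0.16), were lower at adjusted p-values of 0.036 and 0.038 (limma). In that fit 6.17% of all transcripts were lower. *Jazf1* did not pass after median centring. With 1 library left out, the log2 fold change was -0.49 to -0.41 for *Pparg* and -0.17 to -0.15 for *Jazf1*. The added 0.5 RPKM understates changes of genes this low. *Pparg* was at 0.307 and 0.349 RPKM at 2.8 mM and 0.104 and 0.108 RPKM at 16.8 mM, a 0.323-fold ratio. The ratio of *Jazf1* was 0.614-fold. *G6pc2* was 7.08-fold higher, and no other tested gene of the list exceeded the 1.98-fold ratio of *Gipr*.

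Of the genes that share the C2 domain with this family and act in granule exocytosis, 12 were in the table and 7 were tested, of which 3 rose and none fell, against 10.7% higher and 22.8% lower among all tested transcripts. *Syt5*, a synaptotagmin, was at 3.47 and 2.95 RPKM at 2.8 mM and 10.2 and 10.2 RPKM at 16.8 mM (log2 fold change 1.54, limma adjusted p = 2.9e-04). *Unc13a*, which primes granules, rose 2.73-fold (log2 fold change 1.16) and *Syt13* 1.61-fold (0.66). *Syt7*, a calcium sensor of insulin granules (-0.26), and *Syt4* (-0.23) did not pass, although *Syt7* passed as lower in 4 of 14 alternative settings. The median of the 7 was 0.15.

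The VPS13 proteins and the related ATG2 lipid transfer proteins have 6 genes in the table, all with a mean under 1 RPKM. The fit with no minimum was used for them. There 1 of the 6 passed, where 9.13% of all transcripts did. *Vps13a* was at 0.780 and 0.718 RPKM at 2.8 mM and 0.551 and 0.553 RPKM at 16.8 mM, and *Vps13b* was at 0.172 and 0.172 against 0.114 and 0.111 RPKM. *Vps13b* was lower (log2 fold change -0.13, limma adjusted p = 0.036), a 0.652-fold ratio, but did not pass after median centring. The added 0.5 RPKM understates changes of genes this low, and voom on reconstructed reads gave -0.62 for *Vps13b*. With 1 library left out, its log2 fold change was -0.14 to -0.13. *Vps13a*, at a 0.737-fold ratio, did not pass (limma adjusted p = 0.067). Of the 3 genes for proteins that hold VPS13C at membranes, 1 fell, where 22.8% of all tested transcripts did. This was *Vapa*, an anchor of the endoplasmic reticulum, at 2.97 and 2.80 RPKM at 2.8 mM and 1.82 and 1.71 RPKM at 16.8 mM (log2 fold change -0.58, limma adjusted p = 0.0036). Its paralogue *Vapb* (-0.26, limma adjusted p = 0.070) and the late endosome GTPase *Rab7* (-0.20, limma adjusted p = 0.193) did not pass.

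FoxO transcription factors have been tied to *C2cd4a* in beta cells. Of their 4 genes, only *Foxo4* was tested, and it did not pass (log2 fold change -0.20, limma adjusted p = 0.207). *Foxo1* was at 0.429 and 0.449 RPKM at 2.8 mM and 0.511 and 0.487 RPKM at 16.8 mM, under the minimum. *Foxo6*, also under it, was at 0.655 and 0.574 RPKM at 2.8 mM and 0.365 and 0.360 RPKM at 16.8 mM. In the fit with no minimum, *Foxo1* (limma adjusted p = 0.214) and *Foxo6* (limma adjusted p = 0.055) did not pass.

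**Figure D5:**
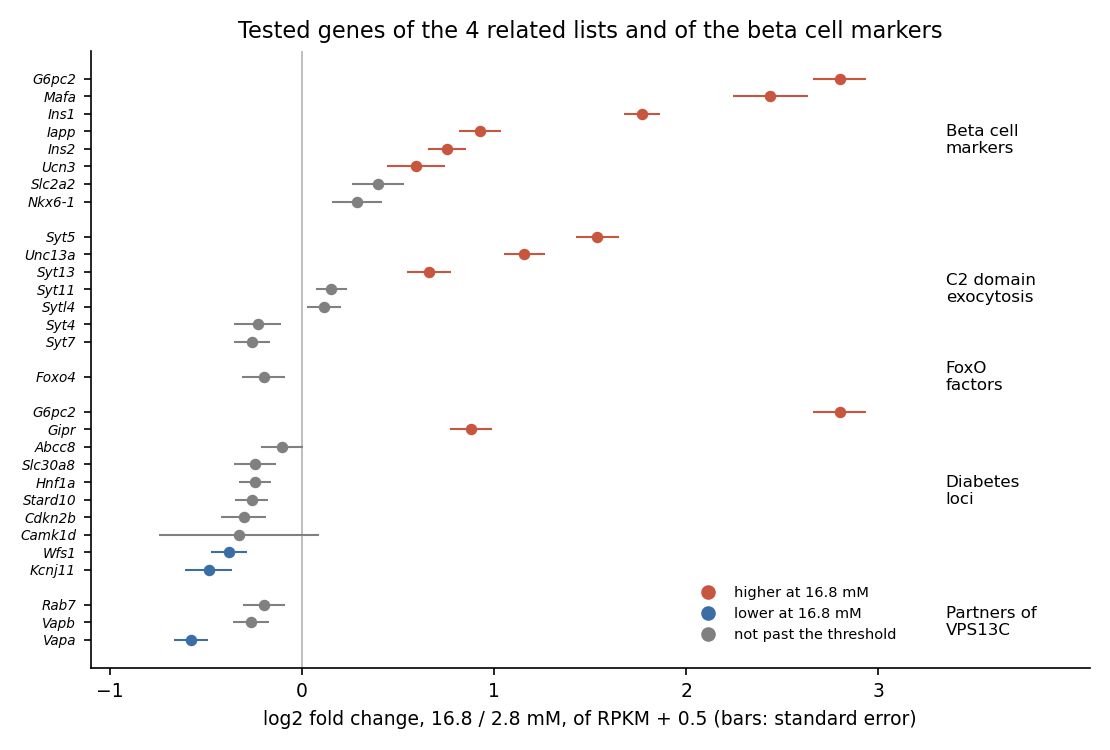
Log2 fold change of RPKM + 0.5 (16.8 mM over 2.8 mM, bars are standard errors) of the tested genes of 4 related lists and of the beta cell markers. Red points were higher and blue points lower at an adjusted p under 0.05. *G6pc2* at 2.80, which stands in 2 lists, and *Mafa* at 2.44 are the points nearest to the values of *C2cd4a* and *C2cd4b*.

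Cell type markers were set beside the difference in *C2cd4a* and *C2cd4b*. Of the 8 beta cell markers, 6 rose, against 10.7% of all tested transcripts, with a median log2 fold change of 0.84. In the fit with no minimum 4 of these 6 did not pass (limma adjusted p from 0.099 to 0.62), and 4 did not after quantile normalization. *Mafa*, a maturity factor of beta cells, rose from 13.7 and 10.2 RPKM to 57.5 and 76.2 RPKM (limma adjusted p = 4.2e-04). Their part in the difference in *C2cd4a* and *C2cd4b* was not tested. The markers of alpha, delta, pancreatic polypeptide, acinar, duct, endothelial, leukocyte and stromal cells were 29, none of them at 0 in all libraries. Of these, 17 were tested and none passed, against 33.4% of all tested transcripts. The other 12 were under the minimum, among them most endothelial, leukocyte and stromal markers. Of the endothelial markers under it, *Pecam1* (1.76-fold) and *Cdh5* (1.60-fold) had both 16.8 mM values above both 2.8 mM values, as was so for 22.2% of tested transcripts. *Esm1*, the only tested endothelial marker, overlapped between the groups (1.27-fold, limma adjusted p = 0.295). *Kdr* (0.961-fold) and *Plvap* (1.02-fold) overlapped between the groups. The acinar sum was 32.4 and 93.7 RPKM at 2.8 mM and 81.0 and 160 RPKM at 16.8 mM. The median log2 fold change was 1.03 over the acinar markers, and the only tested duct marker was at 1.15. Their part in the difference in *C2cd4a* and *C2cd4b* was not tested either.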

How the data were processed

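RPKM values of the 4 islet libraries, 33923 entries for RefSeq transcripts and 145 lncRNAs among them, were deposited by the authors in 1 table. Per the labels and the methods, libraries came from the TruSeq RNA kit v2, were read as single reads of 50 bases, and STAR, bedtools and DESeq were used on mm9 (NCBI build 37). No versions are given in the sources used here, and the islet libraries are not described apart from those of sorted cells. The methods name RefSeq exons for counting, whereas the deposited RPKM values followed whole reads over gene spans. With the spans of GENCODE vM1, 73.6% to 75.2% of low spliced genes came out whole within 0.05 reads, against 7.33% to 10.8% with exon lengths. The depth used for both was the one at which most values came out whole over spans, and none was sought for exon lengths. Depth and read numbers were reconstructed on that basis. Repeated rows with equal values for the same gene were dropped, which left 28047.

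Differences in log2(RPKM + 0.5) were fitted by limma 3.58.1 (R 4.3.3, trended variance), for the 7867 transcripts averaging 1 RPKM or more, with Benjamini-Hochberg adjustment at 0.05. In simulated data with 200 changed of 7867 transcripts, 100% were called and 4.76% of the calls were false. The simulated libraries varied independently, and fewer transcripts changed in them than were called here. Many of the changes named here are also smaller than the simulated ones, so these shares need not hold for these data. The alternatives were median centring, quantile normalization, an untrended variance, no minimum or 1 RPKM in every library, 0.1 or 1 RPKM added, all entries as deposited, voom on reconstructed reads with a mean of at least 20, the replicate block and leaving out each library. For *Vps13c* and other named genes under the minimum they were run with no minimum.

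The 4 genes and all gene lists were chosen with earlier results of these data known, and 1 gene of the lists is not reported here. Named besides them were all table genes within 1 Mb of the locus, list genes past the threshold or at the extremes, and the 5 nearest profiles. Promoters were taken from RefSeq (GRCm38.p6) and matched to build 37, and coding sequences from GENCODE vM1 were aligned with biopython 1.88. Figures were drawn with matplotlib 3.10.9 in Python 3.11.15, and scipy 1.17.1, numpy 2.4.6 and pandas 2.3.3 were used.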

Additional observations from a re-analysis of the deposited data

How the results depend on the processing

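*C2cd4b* was higher at 16.8 mM under all 14 alternatives and *C2cd4a* under 13, since with at least 1 RPKM asked of every library *C2cd4a* and *Vps13c* drop out. *C2cd4c* did not pass under any of the 14. The log2 fold change of *C2cd4a* was 2.84 after quantile normalization, 3.00 after median centring, 3.56 with 0.1 RPKM added, 2.43 with 1 RPKM added and 3.79 by voom on reconstructed reads, against 2.92. That of *C2cd4b* was 3.08, 3.13, 3.15, 2.92 and 3.18 in the same order, against 3.04, so that which of the pair changed more depends on what is added. Leaving out 1 library gave 2.90 to 2.93 for *C2cd4a*, 3.02 to 3.07 for *C2cd4b*, -0.26 to -0.050 for *C2cd4c* and -0.054 to -0.014 for *Vps13c*. *Vps13c* turned to 0.033 after quantile normalization and 0.050 after median centring, and it did not pass under any alternative that could be run.

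Over all transcripts, 1825 to 2579 passed when 1 library was left out, and 7308 of 17296 passed by voom. The share of calls that were higher was 31.9%, and it was 42.3% after quantile normalization and 44.1% after median centring. Deviations from the group means correlated at 0.31 across transcripts between libraries of the same number, but these came from 1 pool of islets and share only a number. With the replicate block 4067 transcripts passed, fold changes stayed as they were, and *Rps27l*, *Tpm1*, *Vapb*, *Rab7*, *Slc30a8* and *Syt7* passed. In the fit with no minimum, *Rora*, *Tln2*, *Vps13b*, *Pparg* and *Jazf1* no longer passed with this block. Their adjusted p-values there were nearly equal (limma, 0.0779 to 0.0785), and how many of all transcripts passed in that fit is not given here. Of 366 values of the other 26 named genes and the lncRNA, 23 came to pass, 34 no longer passed, and 1, *Tln2* after median centring (0.054), changed direction. Median centring added 0.084 to every log2 fold change, and that of *Tln2* was -0.030 before it. With *Tln2* at a mean of 0.030 RPKM, the added 0.5 RPKM understates its change, which was -0.54 by voom. The cause of the other shifts was not tested. With 47 to 55 reads at 2.8 mM, the low glucose level of *C2cd4a* carries the most counting error of the 4 genes.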
